A study of Homo sapiens with 9 samples.

Results

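The genes described here encode the ephrins, semaphorins, slits and netrins and their receptors, whose messages were counted in 3 subclones of the human melanoma line SK-MEL-5, an established culture that carries a mutated BRAF gene. Members were taken by symbol alone, as protein-coding genes named EPHA, EPHB, EFNA, EFNB, SEMA, PLXN, SLIT1 to SLIT3, ROBO, NTN, UNC5 or DCC, which gave 71 of the 60675 genes counted. They are 14 Eph receptors, 8 ephrins, 20 semaphorins, 9 plexins, 3 slits, 4 Robo receptors, 6 netrins and 5 netrin receptors, and 2 further genes, UNC50 and UNC5CL, that share the letters UNC5 but are not netrin receptors. The groups were the subclones SC10, SC07 and SC01, each grown out from 1 cell without drug and chosen, per the labels, by its first response to the BRAF inhibitor PLX-4720. The labels do not say how each clone responded. All 9 libraries, 3 per clone, came from untreated cells, and each clone is a single clone, so a difference between clones is a difference between 3 single-cell descents of 1 line. Nothing in the labels ties the 3 libraries of a clone to separate cultures. The p-values therefore set a difference between clones only against the spread of libraries within a clone, which may be technical. Clone cannot be told apart from any batch of culture or extraction.

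Guidance molecules steer growing axons and migrating cells, including the neural crest cells from which melanocytes descend. Ephrins sit on one cell and bind Eph receptor tyrosine kinases on its neighbour, so that both cells can respond. Semaphorins act through plexins, which switch off small GTPases inside the cell and, for most of the secreted class 3 semaphorins, need a neuropilin as co-receptor. Slits bind Robo receptors and mostly repel, while netrin-1 attracts through DCC and repels through UNC5 receptors.

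Library totals ran from 30224066 to 39454087 counts. Of the 71 genes, 64 passed the filter on low counts and were tested in a single model of all 18009 genes that passed. The other 7 (EPHA6, NTNG1, PLXNA3, PLXNA4, ROBO4, SEMA4A and SEMA5B) had between 1 and 57 counts over all 9 libraries and none reached a mean of 0.3 CPM in a clone, where CPM is the depth-normalised count (edgeR CPM, TMM-scaled for library composition). SC10 replicate 3 stood apart from its sister libraries over the genes counted as a whole, the guidance genes included. Its chi-square per degree of freedom was 9.47 and 10.5 against its sisters, beside 2.47 between those. Among the 29 members above 10 CPM, SC10 replicate 3 held the lowest value of the 3 SC10 libraries in 23, at a median of 0.92 times the mean of the other 2. Its part in the results was tested by leaving it out. Of 8 melanocytic markers 7 were tested and reached a mean of at least 104.5 CPM in every clone, while every library listed SOX10 at 0 counts. The settings of the counting are not given, and whether it missed reads of SOX10 was not tested, so this value is not read as absence of the message. The summed level of 7 fibroblast markers was 336 to 371 CPM in the SC10 libraries, 428 to 490 CPM in those of SC07 and 132 to 137 CPM in those of SC01, nearly all of it LUM. Melanocytic markers summed to 15283 to 15495 CPM in the SC10 libraries, 24452 to 24962 CPM in those of SC07 and 10875 to 11532 CPM in those of SC01, most of it PMEL and DCT. Of the 7 tested, 5 were higher and 2 lower in each of SC10 and SC07 than in SC01. The 2 lower ones were TYRP1, at a mean of 702 CPM in SC10, 1212 CPM in SC07 and 2394 CPM in SC01, and S100B, at 133, 104.5 and 150 CPM. COL3A1 and THY1 of the fibroblast markers, CDH5 and TEK of the 4 endothelial markers and CD3E of the 5 immune markers stayed below 0.1 CPM in each clone mean, and KRT1 of the 6 keratinocyte markers was at 0. Endothelial markers summed to 4.81 to 5.37 CPM in the SC10 libraries, 8.43 to 10.3 CPM in those of SC07 and 2.84 to 3.10 CPM in those of SC01, almost all of it VWF, and immune markers to 1.51 to 1.96 CPM in SC10, 3.94 to 4.79 CPM in SC07 and 1.26 to 1.52 CPM in SC01, most of the SC07 sum being PTPRC. Keratinocyte markers summed to between 21.8 and 27.8 CPM in every library, most of it KRT10, while KRT14 averaged 0.0197 ± 0.017 CPM in SC10, 1.23 ± 0.43 CPM in SC07 and 0.2204 ± 0.15 CPM in SC01, and CDH1 averaged 0.7495 ± 0.18 CPM in SC10, 1.08 ± 0.16 CPM in SC07 and 0.108 ± 0.043 CPM in SC01 (mean ± SD, n = 3). CDH1 was higher in SC10 (2.75 on the log2 scale) and SC07 (3.28) than in SC01, and KRT14, with 2 counts in SC10, was lower in SC10 and higher in SC07 than in SC01 and lower in SC10 than in SC07. The part of these markers in the results below was not tested, and in such bulk samples fewer cells of a type and less RNA per cell cannot be told apart.

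The starts of 4 genes are shown. EPHA7 had the largest change of any member, and the 3 slits each followed another order of clones, with SLIT1 highest in SC10, SLIT2 highest in SC07 and SLIT3 close to 0 in SC10. Each sequence runs 5′ to 3′ on the strand of the gene, from RefSeq on GRCh38.p14, with the 50 bases from the RefSeq start on in capitals.
EPHA7: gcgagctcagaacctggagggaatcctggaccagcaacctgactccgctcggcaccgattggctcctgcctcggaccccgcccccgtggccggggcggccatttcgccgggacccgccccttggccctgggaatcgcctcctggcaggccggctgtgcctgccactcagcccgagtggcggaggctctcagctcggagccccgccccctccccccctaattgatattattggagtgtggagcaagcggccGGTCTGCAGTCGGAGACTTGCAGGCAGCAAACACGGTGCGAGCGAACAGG
SLIT1: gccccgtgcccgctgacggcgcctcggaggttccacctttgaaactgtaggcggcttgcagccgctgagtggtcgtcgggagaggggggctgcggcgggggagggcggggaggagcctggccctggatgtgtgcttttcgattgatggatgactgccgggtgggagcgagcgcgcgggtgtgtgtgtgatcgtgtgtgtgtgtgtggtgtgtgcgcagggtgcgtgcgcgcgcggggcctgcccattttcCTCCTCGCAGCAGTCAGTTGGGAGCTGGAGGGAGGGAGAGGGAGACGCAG
SLIT2: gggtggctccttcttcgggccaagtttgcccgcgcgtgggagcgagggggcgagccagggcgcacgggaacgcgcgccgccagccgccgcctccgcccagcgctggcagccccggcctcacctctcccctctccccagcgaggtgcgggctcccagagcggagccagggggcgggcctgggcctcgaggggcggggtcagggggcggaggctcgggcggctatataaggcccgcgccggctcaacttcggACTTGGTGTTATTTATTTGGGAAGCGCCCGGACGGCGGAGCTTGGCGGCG
SLIT3: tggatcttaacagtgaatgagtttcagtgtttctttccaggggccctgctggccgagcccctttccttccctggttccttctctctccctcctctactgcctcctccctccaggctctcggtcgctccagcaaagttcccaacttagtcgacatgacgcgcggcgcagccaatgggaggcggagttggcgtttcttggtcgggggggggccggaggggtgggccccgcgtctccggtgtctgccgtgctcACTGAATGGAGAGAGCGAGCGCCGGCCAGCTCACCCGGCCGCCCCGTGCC
They lie at chr6:93419510-93419809, minus strand, at chr10:97185910-97186209, minus strand, at chr4:20251655-20251954, plus strand, and at chr5:169301090-169301389, minus strand. GENCODE 29 transcripts start within these windows for EPHA7, SLIT1 and SLIT3, whereas for SLIT2 the GENCODE start lies 1355 bases from the RefSeq start. G and C made up 68.3%, 68%, 74.3% and 64.7% of the 300 bases in the order shown. The hexamer CACGTG and the hexamer CATGTG (searched on both strands), forms of the E-box that MITF can bind, and TGAGTCA (both strands), the site of AP-1 factors, were not found in these 4 windows. Among all 35116 RefSeq promoters of that length CACGTG was present in 7.26%, CATGTG in 11.1% and TGAGTCA in 4.95%. Of the 61 guidance genes with a RefSeq promoter, 4, 5 and 0 held them.

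Nearly all tested guidance genes differed somewhere among the clones, in a line where most genes did. In the test of the 3 clones together, 59 of 64 members passed at an adjusted p of 0.05 by the quasi-likelihood F test of edgeR, beside 76.3% of all genes tested. The other 5 were EPHA1, EPHA2, EFNA5, EFNB2 and NTN3. In SC10 against SC01, 36 members were higher and 20 lower, so 56 of 64 (87.5%) had a call (adjusted p under 0.05), beside 65.9% of all genes (33.5% higher and 32.4% lower). In SC07 against SC01, 29 were higher and 19 lower, or 75.0% together, beside 62.0% (31.5% higher and 30.5% lower). Of all genes called in that comparison 50.8% were higher, or 40.5% with library totals alone, while of the members called 60.4% were higher, or 56.3% with library totals alone. The same shares in SC10 against SC01 were 50.8% and 41.6% of all genes called. Of the members called there they were 64.3% and 59.6%, with 31 higher and 21 lower under library totals. In SC10 against SC07, 26 were higher and 17 lower, or 67.2% together, beside 47.9% (24.8% higher and 23.0% lower). The comparisons of SC10 and SC07 with SC01 share the same 3 SC01 libraries. Without SC10 replicate 3, 33 members were higher and 19 lower in SC10 than in SC01, and 27 were higher and 17 lower in SC10 than in SC07. Changes of at least 2-fold made up 45.3% of members in SC10 against SC01, 37.5% in SC07 against SC01 and 31.3% in SC10 against SC07, beside 19.5%, 17.8% and 8.62% of all genes tested. A gene that passed the filter only through the clone where it was high had to differ, so these shares describe the tested members and were not tested against other genes. EPHA7 and UNC5A passed in this way through SC10, and EPHB1 through SC01. The libraries of SC10 and SC01 did not overlap for 55 of 64 members, those of SC07 and SC01 for 49 and those of SC10 and SC07 for 45, beside 69.1%, 67.4% and 53.4% of all genes. A log2 change of at least 1.5 past the threshold, the size used to choose the 25 genes given library by library, was found in 11.1%, 10.3% and 4.45% of all genes in these 3 comparisons. With a call against each, SC10 stood above both other clones in 22 of 64 members, beside 14.9% of all genes, SC07 in 11, beside 10.8%, and SC01 in 14, beside 22.3%. SC10 stood below both in 8, beside 12.7%, SC07 in 8, beside 10.8%, and SC01 in 24, beside 24.2%.

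**Figure D1:**
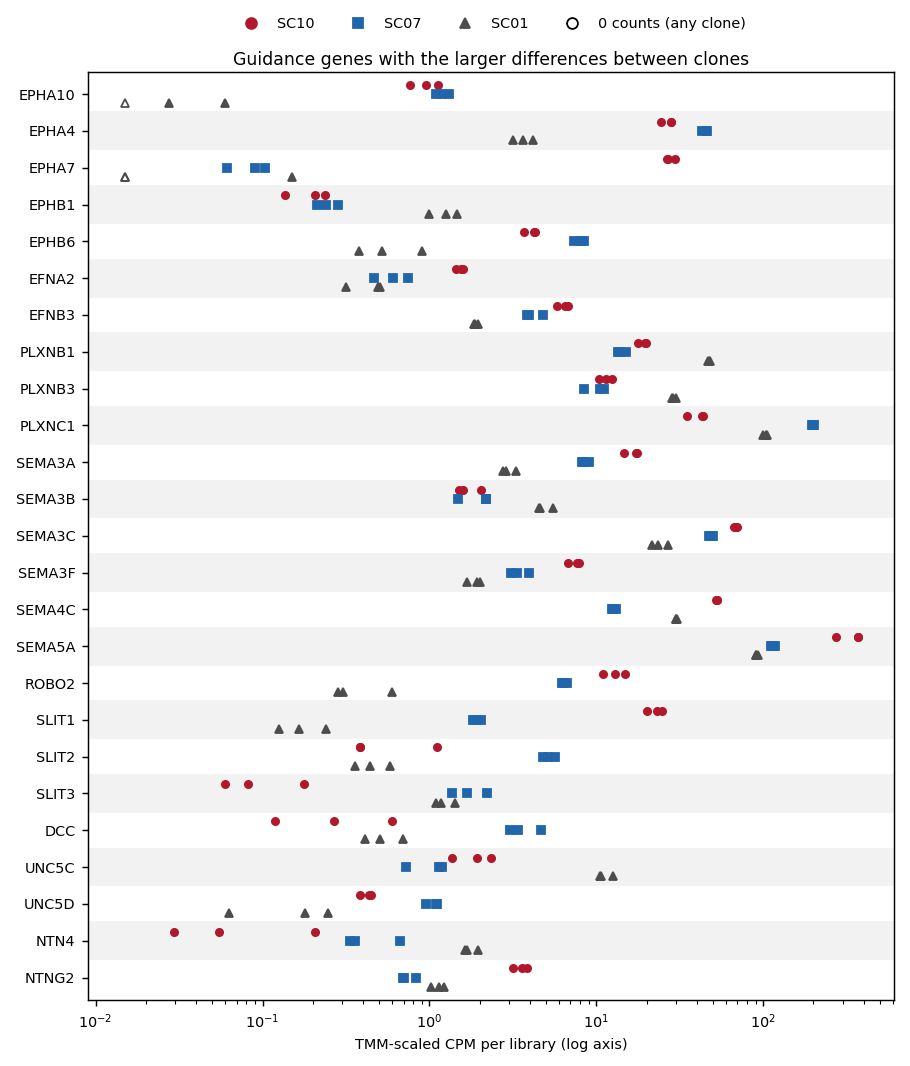
TMM-scaled CPM (log axis) of the 25 guidance genes that passed the threshold in a pair of clones with a log2 change of at least 1.5 and reached a mean of 1 CPM in a clone. Each symbol is a library (3 per clone, SC10 above SC07 above SC01 in each row, open symbols at the left edge for 0 counts), and EPHA7 sits between 26.5 and 29.6 CPM in the SC10 libraries while the other 6 libraries stay at or below 0.150 CPM.

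Among the Eph receptors, EPHA7 was abundant in SC10 and near 0 in the other clones, SC10 and SC07 both held far more EPHA4, EPHB6 and EPHA10 than SC01, and SC01 held the most EPHB1. Calls were made for 65.9% of all genes tested in SC10 against SC01, 62.0% in SC07 against SC01 and 47.9% in SC10 against SC07. Of 13 Eph receptors tested, 8 were higher and 2 lower in SC10 than in SC01, 6 higher and 3 lower in SC07 than in SC01, and 3 higher and 5 lower in SC10 than in SC07. The medians of the log2 change were 0.60, 0.59 and -0.29, beside medians of -0.013, -0.010 and -0.0057 over all genes tested.

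EPHA7, a receptor of A-type ephrins on GRCh38 chromosome 6, 93240020 to 93419547, minus strand, measured 29.6, 26.8 and 26.5 CPM in the SC10 libraries, 0.0609, 0.103 and 0.0896 CPM in the SC07 libraries and 0, 0 and 0.1497 CPM in the SC01 libraries. The SC10 libraries lay far above the other 6, whose values rest on 9 counts over SC07 and 5 over SC01, all 5 of them in SC01 replicate 3. Its log2 change was 8.28 in SC10 against SC07 (adjusted p = 9.13e-20) and 9.03 in SC10 against SC01 (adjusted p = 1.44e-20, edgeR). EPHA7 passed the filter on low counts only through SC10, so these p-values add no support to its difference. Without SC01 replicate 3 the second value became 12.91, and without SC01 replicate 1 it was 8.42, so its size is poorly fixed while the call held. SC07 did not differ from SC01 past the threshold (0.75, adjusted p = 0.435), but the difference passed without SC01 replicate 3 (adjusted p = 0.00618), which held all the SC01 counts.

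EPHA4, which binds ephrins of both classes, stood at 27.8, 28.1 and 24.6 CPM in the SC10 libraries, 46.03, 45.2 and 43.2 CPM in the SC07 libraries and 3.63, 3.16 and 4.19 CPM in the SC01 libraries. All 3 clones were separate, with SC07 highest and SC01 lowest. The log2 change was 2.87 ± 0.089 (SE) in SC10 against SC01, 3.61 ± 0.087 in SC07 against SC01 and -0.74 ± 0.068 in SC10 against SC07. EPHB6, a receptor without kinase activity, had the same order of clones at lower levels, with 3.68, 4.21 and 4.31 CPM in the SC10 libraries, 8.403, 7.32 and 8.12 CPM in the SC07 libraries and 0.522, 0.379 and 0.898 CPM in the SC01 libraries. Its log2 change was 2.75 ± 0.20 in SC10 against SC01, 3.72 ± 0.19 in SC07 against SC01 and -0.97 ± 0.14 in SC10 against SC07.

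EPHA10, also without kinase activity, measured 0.763, 0.949 and 1.12 CPM in the SC10 libraries, 1.096, 1.19 and 1.31 CPM in the SC07 libraries and 0.0275, 0 and 0.0599 CPM in the SC01 libraries. SC01 held 3 counts in all, so the ratio of counts was 31.8 for SC10 over SC01 (95% counting interval 10.6 to 157) and 40.5 for SC07 over SC01 (13.6 to 199), intervals that cover counting error only. Its fitted changes moved to 5.69 and 6.03 without SC01 replicate 3, against 4.83 and 5.18 with all libraries. EPHB1 ran the other way and measured 0.136, 0.208 and 0.236 CPM in the SC10 libraries, 0.213, 0.284 and 0.239 CPM in the SC07 libraries and 0.989, 1.45 and 1.26 CPM in the SC01 libraries. Each SC01 library was above all others, and the log2 change was -2.65 ± 0.37 in SC10 and -2.30 ± 0.35 in SC07 against SC01.

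The remaining Eph receptors moved by less. EPHA3, a receptor of ephrin-A5, was higher in SC10 (log2 change 0.50) and in SC07 (0.79) than in SC01, at 91.8 ± 8.9 CPM in SC10, 112 ± 2.1 CPM in SC07 and 64.8 ± 1.6 CPM in SC01 (mean ± SD, n = 3 here and below). EPHA5 was higher in both by 0.61 and 0.59. EPHB2, a receptor of B-type ephrins, was higher in SC10 than in SC07 (1.11) and SC01 (0.999), at 7.29 ± 0.48 CPM in SC10, 3.39 ± 0.42 CPM in SC07 and 3.64 ± 0.33 CPM in SC01. EPHA8 was highest in SC07, with a log2 change of 1.26 against SC01 and -1.22 in SC10 against SC07. EPHB3 was higher in SC10 than in SC07 (1.30, adjusted p = 0.000227). Its calls in SC10 (0.60, adjusted p = 0.0407) and SC07 (-0.71, adjusted p = 0.034) against SC01 were lost with DESeq2 (adjusted p = 0.0782 and 0.0591) and with no filter on low counts (0.0723 and 0.0697). They were also lost for SC10 with library totals alone (0.0927), without any of 5 single libraries for SC10 (SC01 replicates 1, 2 and 3 and SC10 replicates 1 and 3, adjusted p from 0.05995 to 0.158) and without any of 4 for SC07 (SC01 replicates 1, 2 and 3 and SC07 replicate 3, 0.0504 to 0.153). EPHA2, a receptor of ephrin-A1, stood at 15.4 ± 0.37 CPM in SC10, 17.01 ± 1.4 CPM in SC07 and 16.3 ± 0.82 CPM in SC01 with no call in any pair, and EPHA1 stayed below 0.4 CPM in every library with no call. EPHA2 in SC10 against SC01 passed the threshold with library totals alone (adjusted p = 0.0278).

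EPHB4, the receptor of ephrin-B2, had the highest level per kilobase of exon among Eph receptors in each clone, at 18.9 in SC10, 23.5 in SC07 and 25.5 in SC01 (TMM-scaled CPM per kb). It was lower in SC10 than in SC07 (-0.31 ± 0.050) and in SC01 (-0.43 ± 0.050). The smaller difference of SC07 against SC01 (-0.12, adjusted p = 0.0368) was lost with no filter on low counts (adjusted p = 0.0608) and without SC01 replicate 2 or 3 or SC07 replicate 1 or 2, at adjusted p between 0.0792 and 0.355. EPHA3 came next per kilobase, with 13.7 in SC10, 16.8 in SC07 and 9.71 in SC01.

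Among the ephrins, EFNA1 was lower and EFNB3 higher in both SC10 and SC07 than in SC01. Of 8 tested, 4 were higher and 3 lower in SC10 than in SC01, 1 higher and 3 lower in SC07 than in SC01, and 4 higher and 1 lower in SC10 than in SC07, with medians of 0.030, -0.24 and 0.31. The shares of all genes with a call were 65.9%, 62.0% and 47.9% in the same order. EFNA1, a membrane-anchored ligand of EPHA2, was the most abundant ephrin per kilobase in each clone (6.13 in SC10, 7.59 in SC07 and 14.99 in SC01 CPM per kb). Its level was 15.6 ± 0.92 CPM in SC10, 19.3 ± 1.7 CPM in SC07 and 38.1 ± 1.2 CPM in SC01, with a log2 change of -1.29 ± 0.070 in SC10 against SC01, -0.98 ± 0.068 in SC07 against SC01 and -0.31 ± 0.072 in SC10 against SC07.

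EFNB3, a transmembrane ligand that EPHA4 binds, measured 6.73, 5.79 and 6.498 CPM in the SC10 libraries, 3.96, 3.87 and 4.81 CPM in the SC07 libraries and 1.95, 1.86 and 1.86 CPM in the SC01 libraries. SC10 was highest and SC01 lowest with no overlap between any pair, and the log2 change was 1.74 ± 0.14 in SC10 against SC01, 1.15 ± 0.15 in SC07 against SC01 and 0.59 ± 0.13 in SC10 against SC07. EFNA2, an ephrin of the GPI-anchored class, measured 1.44, 1.54 and 1.59 CPM in the SC10 libraries, 0.609, 0.464 and 0.746 CPM in the SC07 libraries and 0.494, 0.316 and 0.509 CPM in the SC01 libraries. The SC10 libraries lay above the rest, with a change of 1.78 ± 0.29 against SC01 and 1.34 ± 0.27 against SC07, while SC07 and SC01 overlapped.

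EFNA3 and EFNA4 were higher in SC10 than in SC07 by 0.87 and 0.57 on the log2 scale, though 44.7% and 15.0% of their exon bases overlap an annotated read-through gene of the same strand. EFNA3 was also higher in SC10 than in SC01 (0.50). The call of EFNA4 in SC10 against SC01 (0.36) was lost without SC01 replicate 1 or SC10 replicate 3 (adjusted p = 0.131 and 0.0909) and with library totals alone (0.0891). EFNA4 in SC07 against SC01 (-0.21) had no call, but passed without SC01 replicate 1 (0.0492) and with library totals (0.0459). The call of EFNA3 in SC07 against SC01 (-0.38) was lost without SC01 replicate 1 or SC07 replicate 2 (adjusted p = 0.0635 and 0.187). EFNB1 was lower in SC10 (-0.30) and SC07 (-0.35) than in SC01. EFNA5 was lower in SC10 than in SC01 (-0.46, adjusted p = 0.0233), a call lost without SC01 replicate 1 or SC10 replicate 1 (0.0714 and 0.147) and not accompanied by a call in the test of the 3 clones together. EFNB2, the ligand of EPHB4, stood at 0.972 ± 0.26 CPM in SC10, 1.39 ± 0.32 CPM in SC07 and 1.24 ± 0.065 CPM in SC01 with no call in any pair, passed only for SC10 against SC07 without SC10 replicate 3 (adjusted p = 0.0285), and shares 26.2% of its exon bases with an antisense gene.

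Set side by side, the pair EFNB3 and EPHA4 was higher in both SC10 and SC07 than in SC01, and between SC10 and SC07 its partners moved in opposite directions (0.59 for the ligand and -0.74 for the receptor). EFNA1 and EPHA4 moved in opposite directions in both comparisons with SC01, the ligand lower and the receptor higher. In SC10, EPHA7 stood beside its ligand EFNA5 at per-kilobase levels of 3.70 for the receptor and 0.353 for the ligand (CPM per kb).

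**Figure D2:**
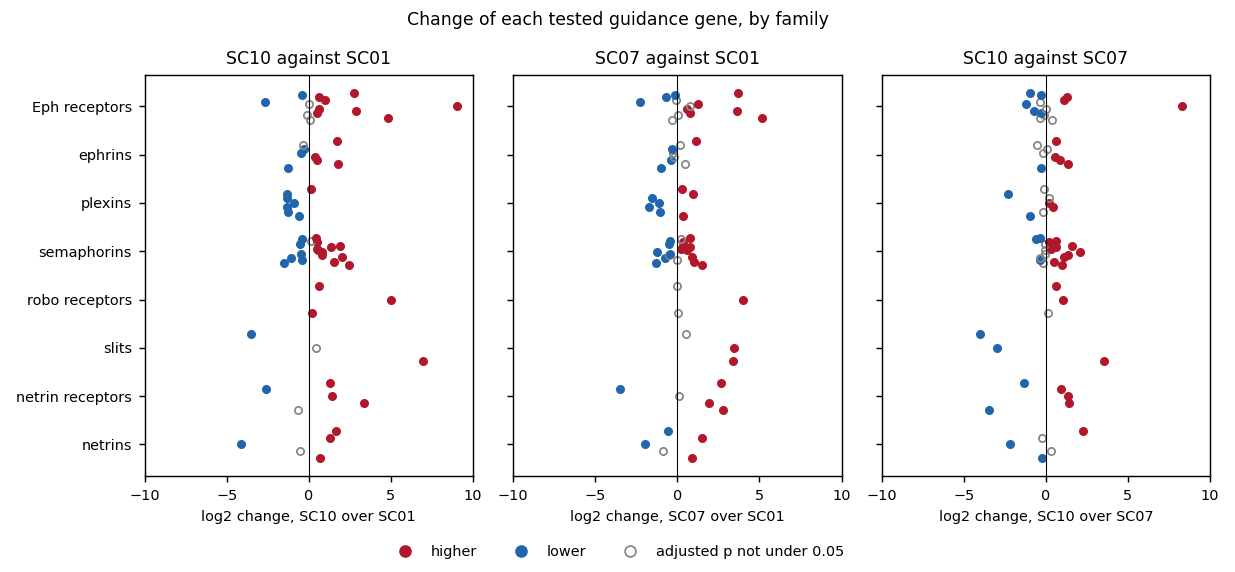
Log2 change of each tested guidance gene in SC10 over SC01, SC07 over SC01 and SC10 over SC07 (x axes), grouped by family (rows). Each point is a gene, filled where the adjusted p was under 0.05 (red for higher, blue for lower in the first-named clone), and 6 of 7 plexins lie left of 0 in SC10 against SC01 while the slits and netrin receptors spread to both sides.

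Plexins, the semaphorin receptors, were mostly lower in SC10 than in SC01. Of 7 tested, 6 were lower and 1 higher in SC10 than in SC01, with a median log2 change of -1.24, and 4 were lower and 3 higher in SC07 than in SC01, with a median of -1.04. In SC10 against SC07, 2 were higher and 2 lower, with a median of -0.10. Over all genes tested, 65.9%, 62.0% and 47.9% had a call in these comparisons. Lower ones were 32.4% in SC10 and 30.5% in SC07 against SC01, and no test was made of the family. All 3 plexins of the B class fell in both clones against SC01.

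PLXNB1, a receptor of SEMA4D, measured 19.7, 19.8 and 17.7 CPM in the SC10 libraries, 13.9, 13.4 and 15.02 CPM in the SC07 libraries and 47.7, 47.4 and 46.7 CPM in the SC01 libraries. The SC01 libraries were the highest and those of SC07 the lowest, with a log2 change of -1.31 ± 0.063 in SC10 against SC01 and -1.75 ± 0.065 in SC07 against SC01. PLXNB3, a receptor of SEMA5A, measured 11.5, 12.3 and 10.4 CPM in the SC10 libraries, 8.46, 10.5 and 11.1 CPM in the SC07 libraries and 29.9, 28.3 and 28.7 CPM in the SC01 libraries. Its values in SC10 and SC07 overlapped and lay below all SC01 libraries, with log2 changes of -1.34 and -1.53, and 20.4% of its exon bases overlap the neighbouring gene SRPK3. SC10 and SC07 differed in PLXNB3 only without SC07 replicate 3 (adjusted p = 0.0362) or SC10 replicate 3 (0.0229). PLXNB2, the receptor of SEMA4C, was among the most abundant guidance genes, at 24.1 in SC10, 20.9 in SC07 and 45.8 in SC01 (CPM per kb), and changed by -0.92 ± 0.048 in SC10 against SC01, -1.13 ± 0.048 in SC07 against SC01 and 0.21 ± 0.048 in SC10 against SC07.

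PLXNC1, the receptor of SEMA7A on chromosome 12, 94148723 to 94307675, plus strand, measured 43.7, 42.8 and 34.8 CPM in the SC10 libraries, 203, 200.1 and 197 CPM in the SC07 libraries and 99.5, 105 and 105 CPM in the SC01 libraries. No clones overlapped: SC07 was highest, SC01 between and SC10 lowest. Its log2 change was -1.35 ± 0.062 in SC10 against SC01, 0.96 ± 0.058 in SC07 against SC01 and -2.31 ± 0.062 in SC10 against SC07 (adjusted p = 1.24e-18, edgeR). PLXNA1, which works with neuropilins for class 3 semaphorins, had the same order of clones, at 319 ± 29.98 CPM in SC10, 613 ± 17 CPM in SC07 and 478 ± 13 CPM in SC01, and changed by -0.59, 0.36 and -0.94 in the same 3 comparisons. It was the plexin with the highest level per kilobase in SC10 and SC07, and PLXNB2 in SC01. PLXNA2 was lower in SC10 (-1.24) and in SC07 (-1.04) than in SC01, and between SC10 and SC07 it passed only with library totals alone (adjusted p = 0.0447). PLXND1, the receptor of SEMA3E, was higher in SC07 than in SC01 (0.26). Its small gain in SC10 (0.16) was lost with library totals alone (adjusted p = 0.475) and without any of SC01 replicates 1, 2 and 3 and SC10 replicate 2 (0.0512 to 0.0870). PLXNA3 and PLXNA4 were not tested, with 14 and 57 counts over all libraries. Whether the counting missed reads of PLXNA3 was not tested either.

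Semaphorins moved to both sides, with more of them higher in SC10. Beside 65.9%, 62.0% and 47.9% of all genes with a call in the comparisons that follow, most semaphorins had one. Of 18 semaphorins tested, 11 were higher and 6 lower in SC10 than in SC01, 9 higher and 6 lower in SC07 than in SC01, and 10 higher and 3 lower in SC10 than in SC07, with medians of 0.51, 0.20 and 0.24. Their levels per kilobase summed to 99.8 in SC10, 68.1 in SC07 and 59.3 in SC01 (CPM per kb over 20 genes), while those of the 9 plexins summed to 64.8 in SC10, 104 in SC07 and 113 in SC01. Of the semaphorin sums, SEMA5A alone made up 27.8 in SC10, 9.46 in SC07 and 7.57 in SC01.

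SEMA5A, a transmembrane semaphorin with thrombospondin repeats (GRCh38 chromosome 5, 9035026 to 9546075, minus strand), measured 367, 369 and 275 CPM in the SC10 libraries, 117, 112 and 114 CPM in the SC07 libraries and 90.3, 91.1 and 93.5 CPM in the SC01 libraries. Every SC10 library was above all others even though SC10 replicate 3 was lower than its sister libraries. The log2 change was 1.88 ± 0.11 in SC10 against SC01 and 1.56 ± 0.11 in SC10 against SC07. The small difference of SC07 against SC01 (0.32, adjusted p = 0.0346) was lost without any single SC07 or SC01 library (0.0617 to 0.0959) and with library totals alone (0.131). It held without any single SC10 library, at an adjusted p as low as 1.35e-10 (edgeR), and the SC07 libraries lay above all SC01 libraries.

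SEMA4C, a ligand of PLXNB2, measured 52.2, 53.02 and 52.6 CPM in the SC10 libraries, 13.1, 12.6 and 12.4 CPM in the SC07 libraries and 30.1, 30.6 and 29.996 CPM in the SC01 libraries. SC10 was highest and SC07 lowest with narrow spreads, and the log2 change was 0.80 ± 0.054 in SC10 against SC01, -1.25 ± 0.060 in SC07 against SC01 and 2.05 ± 0.058 in SC10 against SC07 (adjusted p = 1e-20, edgeR).

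SEMA3A, SEMA3C and SEMA3F, of the secreted class 3 semaphorins, were graded over the clones, highest in SC10 and lowest in SC01. SEMA3A, which repels through neuropilin-1 and A-type plexins, measured 14.6, 17.6 and 17.2 CPM in the SC10 libraries, 9.04, 8.197 and 8.299 CPM in the SC07 libraries and 2.75, 2.88 and 3.32 CPM in the SC01 libraries. SEMA3C, which can act through PLXND1, measured 68.7, 70.1 and 66.8 CPM in the SC10 libraries, 50.3, 47.2 and 48.9 CPM in the SC07 libraries and 26.8, 21.7 and 23.5 CPM in the SC01 libraries. SEMA3F, which binds neuropilin-2, measured 7.71, 7.83 and 6.79 CPM in the SC10 libraries, 3.35, 3.07 and 3.94 CPM in the SC07 libraries and 1.68, 2.02 and 1.92 CPM in the SC01 libraries. No pair of clones overlapped for any of these genes. In SC10 against SC01 they changed by 2.47 ± 0.11, 1.51 ± 0.061 and 1.99 ± 0.14, in SC07 against SC01 by 1.51 ± 0.11, 1.02 ± 0.062 and 0.88 ± 0.15, and in SC10 against SC07 by 0.95 ± 0.095, 0.49 ± 0.058 and 1.11 ± 0.13.

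SEMA3B, SEMA3E and SEMA3D, also of class 3, were lower in SC10 than in SC01, whereas SEMA3G was highest in SC10. SEMA3B measured 2.04, 1.51 and 1.59 CPM in the SC10 libraries, 1.49, 2.19 and 2.18 CPM in the SC07 libraries and 5.47, 4.61 and 4.55 CPM in the SC01 libraries, with every SC01 library above the others and a change of -1.50 ± 0.17 in SC10 and -1.31 ± 0.17 in SC07 against SC01. SEMA3E, which binds PLXND1 without a neuropilin, was lower in SC10 (-1.06) and SC07 (-0.72) than in SC01. Between SC10 and SC07 SEMA3E passed only without SC07 replicate 3 (adjusted p = 0.0499) or SC10 replicate 1 (0.0360). SEMA3D was lower in SC10 than in SC01 (-0.39), and its call against SC07 (-0.38) was lost without SC07 replicate 2, SC10 replicate 1 or SC10 replicate 3 (adjusted p from 0.0664 to 0.0893). SEMA3G was higher in SC10 than in SC07 (1.32), and its call against SC01 (0.82) was lost without SC01 replicate 2 or SC10 replicate 3 (0.0781 and 0.0860). SEMA3C, SEMA3E, SEMA3A and SEMA3D lie in this order on chromosome 7, between 80742538 and 85186855, and the first and the third were higher in SC10 than in SC01 while the other two were lower.

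Among the membrane-bound semaphorins, SEMA7A, the GPI-anchored ligand of PLXNC1, was highest in SC07, at 35.99 ± 1.5 CPM in SC10, 45.9 ± 1.2 CPM in SC07 and 27.1 ± 1.6 CPM in SC01. SEMA4G was higher in SC10 (1.38) and SC07 (0.79) than in SC01, with 27.4% of its exon bases overlapped by genes of the other strand, MRPL43 among them. SEMA4D, the ligand of PLXNB1, was higher in both by 0.57 and 0.61. SEMA4F and SEMA6B were higher in SC10 than in SC01 by 0.50 and 0.51 and in SC07 than in SC01 by 0.20 and 0.34, of which the value of SEMA4F in SC07 lost its call with library totals (adjusted p = 0.124). SEMA6B in SC10 against SC07 (0.18) lost it without SC07 replicate 1 or 2 or SC10 replicate 1 (0.0906 to 0.132). SEMA6A, a ligand of A-type plexins, was lower in SC10 (-0.55) and SC07 (-0.49) than in SC01, as was SEMA4B (-0.47 and -0.43). SEMA6C was lower in SC07 than in SC01 (-0.48), and SEMA6D was lower in SC10 than in SC07 (-0.61). The call of SEMA6D in SC10 against SC01 (-0.41) was lost without SC10 replicate 3 (adjusted p = 0.0504).

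For the pair of SEMA7A and PLXNC1, both partners were higher in SC07 than in SC01, both were lower in SC10 than in SC07, and in SC10 against SC01 the ligand was higher (0.41) and the receptor lower (-1.35). SEMA4C and PLXNB2 were both lower in SC07 than in SC01 and both higher in SC10 than in SC07, while in SC10 against SC01 the ligand was higher (0.80) and the receptor lower (-0.92). SEMA5A was higher and PLXNB3 lower in SC10 than in SC01, and SEMA4D was higher while PLXNB1 and PLXNB2 were lower in both clones against SC01. SEMA6A and PLXNA2 fell together in both.

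Slits differed in kind from clone to clone, with SLIT1 in SC10, SLIT2 in SC07 and little of either in SC01. SLIT1 (GRCh38 chromosome 10, 96998038 to 97185920, minus strand) measured 24.8, 23.1 and 20.1 CPM in the SC10 libraries, 2.04, 1.91 and 1.82 CPM in the SC07 libraries and 0.165, 0.126 and 0.239 CPM in the SC01 libraries. The clones were separate, and the SC01 values rest on 18 counts. Its log2 change was 6.97 ± 0.17 in SC10 against SC01, 3.41 ± 0.25 in SC07 against SC01 and 3.56 ± 0.12 in SC10 against SC07 (adjusted p = 1.46e-19, edgeR).

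SLIT2 (chromosome 4, 20253260 to 20620561, plus strand) measured 1.12, 0.386 and 0.384 CPM in the SC10 libraries, 5.63, 4.79 and 5.105 CPM in the SC07 libraries and 0.577, 0.442 and 0.359 CPM in the SC01 libraries. The SC07 libraries lay above the other 6, with a change of 3.47 ± 0.28 against SC01 and of -3.01 ± 0.26 in SC10 against SC07. Without SC10 replicate 1, which held 1.12 CPM, the change of SC10 against SC07 was -3.73. SC10 and SC01 overlapped (0.46, adjusted p = 0.273).

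SLIT3 (chromosome 5, 168661733 to 169301129, minus strand) measured 0.0817, 0.0593 and 0.177 CPM in the SC10 libraries, 1.37, 2.22 and 1.67 CPM in the SC07 libraries and 1.099, 1.42 and 1.17 CPM in the SC01 libraries. The SC10 libraries held 11 counts in all and lay below the other 6, with a change of -3.49 ± 0.39 against SC01 and -4.02 ± 0.37 against SC07. SC07 against SC01 had no call (0.52, adjusted p = 0.0706), but passed when those clones were fitted alone (0.0489) and without SC07 replicate 1 (0.0377). The sizes of these changes rest on few counts where a clone is near 0 CPM, as for SLIT1 in SC01 and SLIT3 in SC10.

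Among the Robo receptors, ROBO1 stood at close levels in the 3 clones and ROBO2 was graded over them. ROBO2 (chromosome 3, 75906695 to 77649964, plus strand) measured 13.02, 14.8 and 11.02 CPM in the SC10 libraries, 6.39, 6.65 and 6.21 CPM in the SC07 libraries and 0.302, 0.284 and 0.599 CPM in the SC01 libraries. No clones overlapped, and the log2 change was 5.03 ± 0.19 in SC10 against SC01, 4.01 ± 0.20 in SC07 against SC01 and 1.01 ± 0.12 in SC10 against SC07. ROBO1, which lies next to ROBO2 among the members on chromosome 3, stood at 37.3 ± 3.05 CPM in SC10, 33.9 ± 1.1 CPM in SC07 and 32.7 ± 2.1 CPM in SC01. Its call in SC10 against SC01 (0.19, adjusted p = 0.0105) was lost with library totals (0.292) and without SC01 replicate 3 or SC10 replicate 1 (0.0950 and 0.0636), and SC10 against SC07 (0.14) passed only without SC10 replicate 3 (0.00263). ROBO3, which in mammals does not bind slits, was higher in SC10 than in SC07 (0.63 ± 0.099) and SC01 (0.62 ± 0.100). ROBO4, the endothelial member, had 2 counts, both in SC01, and 16.9% of its exon bases overlap genes of the other strand.

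SLIT1 and ROBO2 were both higher in each of the 3 comparisons, SC10 over SC07 over SC01. Per kilobase of exon, SLIT1 stood at 2.49 in SC10, 0.211 in SC07 and 0.0194 in SC01, SLIT2 at 0.0648 in SC10, 0.533 in SC07 and 0.0473 in SC01 and SLIT3 at 0.00744 in SC10, 0.123 in SC07 and 0.0862 in SC01, while ROBO1 stood at 3.43 in SC10, 3.11 in SC07 and 3.005 in SC01 and ROBO2 at 0.778 in SC10, 0.385 in SC07 and 0.0237 in SC01 (CPM per kb). SLIT1 made up 97.2% of the summed slit level per kilobase in SC10, SLIT2 61.5% in SC07 and SLIT3 56.4% in SC01. ROBO1 was the highest Robo receptor in every clone.

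**Figure D3:**
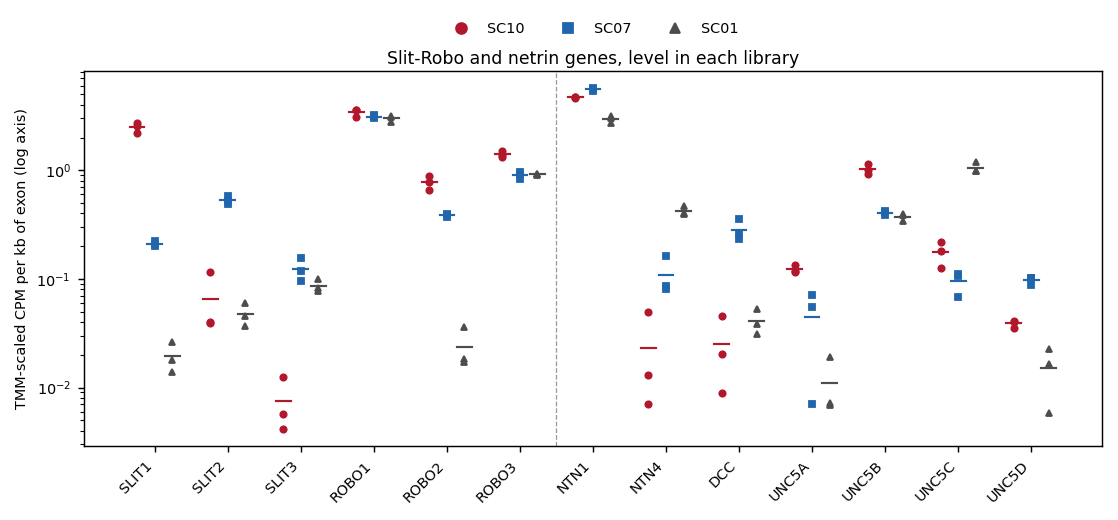
TMM-scaled CPM per kilobase of exon (log axis) of the slit and tested Robo genes (left of the dashed line) and of netrin genes and their receptors (right). Each symbol is a library and each bar the mean of 3 (SC10, SC07 and SC01 from left to right for each gene), and SLIT1 and ROBO2 step down from SC10 to SC01 while ROBO1 stays between 3.005 and 3.43 in the clone means.

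Netrin-1 changed modestly while its receptors changed by clone: DCC was highest in SC07, UNC5B in SC10 and UNC5C in SC01. NTN1, the secreted ligand, stood at 30.1 ± 0.51 CPM in SC10, 35.5 ± 1.05 CPM in SC07 and 19.02 ± 1.6 CPM in SC01, a log2 change of 0.66 ± 0.065 in SC10 against SC01, 0.90 ± 0.065 in SC07 against SC01 and -0.24 ± 0.062 in SC10 against SC07. It was the highest netrin per kilobase in each clone, at 4.71 in SC10, 5.56 in SC07 and 2.98 in SC01 (CPM per kb). Of the 5 netrin receptors, 3 were higher and 1 lower in both SC10 and SC07 against SC01, and 3 were higher and 2 lower in SC10 against SC07. The shares of all genes with a call were 65.9% in SC10 and 62.0% in SC07 against SC01, and 47.9% in SC10 against SC07.

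DCC, the attractive receptor (chromosome 18, 52340172 to 53535903, plus strand), measured 0.599, 0.267 and 0.118 CPM in the SC10 libraries, 4.66, 3.04 and 3.37 CPM in the SC07 libraries and 0.412, 0.695 and 0.509 CPM in the SC01 libraries. The SC07 libraries lay above the other 6, with a change of 2.78 ± 0.30 against SC01 and of -3.45 ± 0.32 in SC10 against SC07, the last being -4.22 without SC10 replicate 1. SC10 against SC01 had no call (-0.67, adjusted p = 0.165) except without SC10 replicate 1 (0.00765). UNC5C, a repulsive receptor, measured 2.34, 1.93 and 1.36 CPM in the SC10 libraries, 1.19, 0.722 and 1.13 CPM in the SC07 libraries and 12.7, 10.5 and 10.6 CPM in the SC01 libraries. Each SC01 library lay far above the others, and the change was -2.58 ± 0.16 in SC10 against SC01, -3.49 ± 0.18 in SC07 against SC01 and 0.91 ± 0.22 in SC10 against SC07.

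UNC5B, another repulsive receptor, was higher in SC10 than in SC07 (1.32 ± 0.13) and SC01 (1.44 ± 0.13), at 6.96 ± 0.72 CPM in SC10, 2.79 ± 0.14 CPM in SC07 and 2.56 ± 0.197 CPM in SC01. UNC5D was low throughout, with 0.436, 0.445 and 0.384 CPM in the SC10 libraries, 1.096, 1.11 and 0.955 CPM in the SC07 libraries and 0.247, 0.0632 and 0.1796 CPM in the SC01 libraries. The clones did not overlap, and SC07 was higher than SC01 by 2.63 ± 0.40, while SC10 was lower than SC07 (log2 change -1.31 ± 0.34). Its call in SC10 against SC01 (1.32) was lost without SC01 replicate 2 (adjusted p = 0.0722). UNC5A was under 0.6 CPM in every library and higher in SC10 than in SC01 (3.36, adjusted p = 4.59e-05), or 3.98 without SC01 replicate 1. UNC5A passed the filter on low counts through SC10, so that p-value adds no support to its difference. Its calls in SC07 against SC01 (1.93) and in SC10 against SC07 (1.42) were lost without any of SC01 replicates 2 and 3 and SC07 replicates 2 and 3 (adjusted p from 0.0811 to 0.184) for the first, which was 2.54 without SC01 replicate 1, and without SC07 replicate 1 or SC10 replicate 3 (0.114 and 0.0508) for the second.

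NTN1 and UNC5C moved in opposite directions in all 3 comparisons. NTN1 and DCC were both higher in SC07 than in SC01 and both lower in SC10 than in SC07, as were NTN1 and UNC5D, which were also both higher in SC10 than in SC01. NTN1 and UNC5B were both higher in SC10 than in SC01 and moved in opposite directions between SC10 and SC07. Per kilobase, the highest netrin receptor was UNC5B in SC10 and SC07 (1.02 and 0.407 CPM per kb) and UNC5C in SC01 (1.05).

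Of the other netrins, NTN4, which binds laminin, measured 0.0545, 0.208 and 0.0295 CPM in the SC10 libraries, 0.6698, 0.335 and 0.358 CPM in the SC07 libraries and 1.95, 1.64 and 1.68 CPM in the SC01 libraries. SC01 was highest and SC10 lowest, with log2 changes of -4.14 ± 0.43 in SC10 against SC01, -1.96 ± 0.33 in SC07 against SC01 and -2.19 ± 0.52 in SC10 against SC07, where SC10 held 10 counts. Without SC10 replicate 2 the changes of SC10 were -5.25 against SC01 and -3.29 against SC07. NTNG2, a GPI-anchored netrin that does not bind DCC or UNC5 receptors, measured 3.87, 3.59 and 3.19 CPM in the SC10 libraries, 0.7003, 0.696 and 0.836 CPM in the SC07 libraries and 1.02, 1.14 and 1.23 CPM in the SC01 libraries. The SC10 libraries lay above the rest, with a change of 1.66 ± 0.19 against SC01 and 2.25 ± 0.20 against SC07. Its call in SC07 against SC01 (-0.60) was lost with DESeq2 (adjusted p = 0.0504), with those clones fitted alone (0.0514), with no filter (0.0710) and without SC01 replicate 2 or 3 or SC07 replicate 1 or 2 (0.0522 to 0.0791). NTN5 was higher in SC07 (1.53) and SC10 (1.26) than in SC01 at under 1 CPM, and the call of SC10 was lost without SC01 replicate 3 (0.0531). NTN3 had no call, though SC07 against SC01 passed without SC07 replicate 2 (0.0401) and with library totals (0.0478). UNC50 and UNC5CL, members by their letters only, were higher in SC07 than in SC01 by 0.32 and 1.11. Their calls in SC10 against SC01 (0.20 and 0.83) were lost for UNC50 with library totals (0.259) and without SC01 replicate 3 (0.0530), and for UNC5CL without SC01 replicate 2 or SC10 replicate 1 (0.0922 and 0.0734). Of the exon bases of UNC5CL, 23.8% overlap OARD1, a gene of the same strand.

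Over the 41 ligand and receptor pairs listed from general knowledge, 35 had each partner tested and at a mean of at least 1 CPM in some clone. Both partners reached 1 CPM within the same clone in 26 pairs in SC10, 32 in SC07 and 25 in SC01. In SC10 against SC01, both partners were higher in 8 pairs and lower in 2, they moved in opposite directions in 17, and in 8 at least 1 partner had no call. Some of these rest on a call that was lost without a single library. Among pairs higher together they were those of EFNA4, PLXND1, ROBO1 and UNC5D. Among pairs lower together it was that of SEMA6D, and among opposite pairs those of EFNA5, EPHB3, PLXND1 and ROBO1. In SC07 against SC01, both partners were higher in 9 pairs and lower in 3, with 7 in opposite directions and 16 without both calls. Here the pairs of EFNA3, EPHB3 and SEMA5A rest on such a call. In SC10 against SC07, both were higher in 2 pairs and lower in 5, with 9 in opposite directions and 19 without both calls. Single genes had a call in 65.9%, 62.0% and 47.9% of all genes tested in these comparisons. The pairs share members, such as PLXNA1 in 3 of them and NTN1 in 4 of those measured, so they are not independent of each other and no test was made of these counts.

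**Figure D4:**
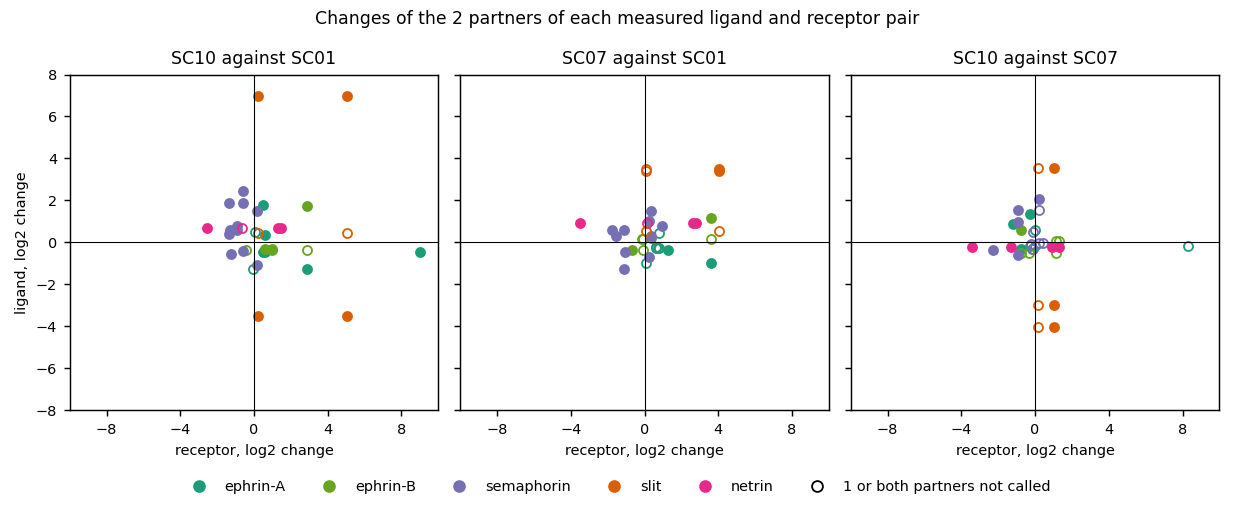
Log2 change of the ligand (y axis) against that of its receptor (x axis) for the 35 measured pairs in SC10 over SC01, SC07 over SC01 and SC10 over SC07. Filled points are pairs with both partners past the threshold, coloured by ligand system, and the point farthest right in SC10 over SC01 is EFNA5 with EPHA7, at a receptor change of 9.03.

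Among the co-receptors and other partners, NRP1, FLRT2 and RGMA were lower and CNTN1 higher in both SC10 and SC07 than in SC01. Of 15 tested of 19 in the list, 7 were higher and 6 lower in SC10 than in SC01, 5 higher and 3 lower in SC07 than in SC01, and 2 higher and 1 lower in SC10 than in SC07, so that 86.7%, 53.3% and 20.0% had a call, beside 65.9%, 62.0% and 47.9% of all genes. The medians of the log2 change were 0.14, 0.18 and 0.024. NRP2, the neuropilin that SEMA3F uses, named here for that role after its values were seen, was abundant in all clones at 452 ± 29 CPM in SC10, 431 ± 16 CPM in SC07 and 315 ± 6.7 CPM in SC01. NRP1, the neuropilin of SEMA3A, was near 0 in SC10 and SC07, at 0.0387 ± 0.018 CPM in SC10, 0.00995 ± 0.017 CPM in SC07 and 0.646 ± 0.21 CPM in SC01. NRP1 had 1 count in SC07, a count ratio of 68.4 in favour of SC01 with a 95% counting interval from 11.9 to 2742, and 4 counts in SC10 (log2 change -3.96 against SC01). FLRT2, a ligand of UNC5D, was lower in SC10 (-3.97 ± 0.22) and SC07 (-3.84 ± 0.21) than in SC01, as was RGMA, a ligand of neogenin (-2.29 and -3.59). CNTN1, a contactin of the neuronal surface, was higher in both, at 27.9 ± 1.6 CPM in SC10, 27.8 ± 0.698 CPM in SC07 and 1.98 ± 0.28 CPM in SC01.

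Among 30 tested of 32 intracellular effectors, 12 were higher and 9 lower in SC10 than in SC01, 11 higher and 10 lower in SC07 than in SC01, and 14 higher and 6 lower in SC10 than in SC07, with medians of 0.072, -0.066 and 0.17. In these comparisons 70%, 70% and 66.7% of the effectors had a call, beside 65.9%, 62.0% and 47.9% of all genes. ABLIM1, an actin-binding LIM protein tied to netrin signalling in worms, rose in SC10 (2.09 ± 0.062) and SC07 (1.77 ± 0.062) against SC01. DPYSL5, of the CRMP family that relays semaphorin signals, was graded at 27.3 ± 1.4 CPM in SC10, 14.3 ± 0.37 CPM in SC07 and 7.102 ± 0.53 CPM in SC01. TRIO, a signalling protein downstream of DCC, rose in SC10 (1.63 ± 0.072) and SC07 (0.84 ± 0.072) against SC01. MICAL2, of the family of actin-oxidising enzymes, was lower in SC10 (-2.09 ± 0.11) and in SC07 (-1.32 ± 0.11) than in SC01, and lower in SC10 than in SC07 (-0.77 ± 0.12).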

How the data were processed

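The 9 RNA libraries, 3 per clone, were grouped and numbered by their labels. The authors deposited raw counts of 60675 Ensembl genes. HISAT2, featureCounts and GRCh38 are named in the submitters' processing notes. Versions, gene annotation, strandedness and the treatment of multi-mapping reads, not given in the sources used here, can change counts of overlapping genes, so genes that overlap others are marked where 10% or more of their exon bases do. Names, positions and exon lengths came from GENCODE 29, which held 57055 of the IDs.

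Genes passing filterByExpr were scaled by TMM, and edgeR 4.0.16 (R 4.3.3) fitted a robust quasi-likelihood model with 1 mean per clone, with Benjamini-Hochberg adjustment over 18009 genes and a threshold of 0.05. Log2 changes and adjusted p-values come from that fit unless another is named. Standard errors come from the fitted change and its F statistic. CPM values are TMM-scaled, and levels are compared between genes only per kilobase of exon. Between libraries of the same clone, chi-square per degree of freedom was 2.47 to 10.5, above sampling noise, and each library was kept as a replicate. The highest values, 9.47 and 10.5, were those of SC10 replicate 3 against its sister libraries. At these totals, 3 counts correspond to between 0.0773 and 0.0948 CPM. Values of every library are given for members past the threshold in a pair of clones with a log2 change of at least 1.5 and a mean of at least 1 CPM in the highest clone, and of the partner and effector lists the 4 with the largest changes are named. The members, pairs and lists were chosen with earlier results of these data known. The summed level of 1 further marker list is not reported here. The fit was tested on simulated data. DESeq2 1.42.0, other scalings and filters, single pairs, a replicate block and leaving out each library were the alternatives. Deviations of same-numbered libraries from their clone means correlated between -0.0195 and 0.0429, beside -0.0406 to 0.0219 for other numbers. These ranges overlap and cannot exclude a pairing by number. The main fit held no term for it.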

Additional observations from a re-analysis of the deposited data

How the results depend on the processing

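Of 192 gene and pair results, 147 had a call, and 126 of these kept their direction and call under every alternative that tested them. Calls lost under at least 1 alternative numbered 21, of which 4 were at least 2-fold (UNC5A in 2 comparisons, UNC5D and NTN5), and 11 results gained a call. A sign changed in 13 results, 0 of them called. Library totals moved the median of all genes to -0.12 on the log2 scale in SC10 and SC07 against SC01.

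With library totals, 4 co-receptors were higher in SC10 and 3 in SC07 than in SC01. With a minimum of 1 CPM in 3 libraries, 3 were lower in SC10 than in SC01 and 0 in SC10 than in SC07 (edgeR). NRP1, FLRT3 and NELL2, otherwise called lower in SC10 than in SC01, did not reach that minimum and were no longer tested. Without a library, members higher and lower ranged from 31 to 36 and 19 to 20 in SC10 against SC01, from 27 to 29 and 16 to 19 in SC07 against SC01, and from 24 to 27 and 16 to 18 in SC10 against SC07. Replicate number as a block left these counts at 36 and 20, 29 and 19, and 26 and 17, and changed 0 member calls. Without UNC50 and UNC5CL, chosen after seeing the data, 34 and 27 members were higher in SC10 and SC07 than in SC01.

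Signs that changed with library totals were those of EPHA2 (-0.047) and ROBO1 (-0.056) in SC07 against SC01, and of EPHA8 (-0.077) and EPHA1 (-0.062) in SC10 against SC01. Without a filter, SEMA3D and ROBO3 in SC07 against SC01 came to 0.0021 and 0.0060. Without a library, the values in SC07 against SC01 ranged from -0.0097 to 0.10 for EPHA2, -0.18 to 0.0040 for EPHB2, -0.0073 to 0.078 for ROBO1, -0.069 to 0.054 for SEMA3D, -0.68 to 0.074 for EPHA1, -0.046 to 0.052 for ROBO3 and -0.034 to 0.28 for EFNB2. In SC10 against SC01 they ranged from -0.062 to 0.16 for EPHA8, -0.26 to 0.72 for SLIT2 and -0.31 to 0.27 for EPHA1, and in SC10 against SC07 from -0.063 to 0.12 for EPHA5, -0.018 to 0.71 for EPHA1 and -0.084 to 0.066 for SEMA4B. The cause of these changes was not tested. Genes near the level of 3 counts per library are limited by depth.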
